A study of Mus musculus with 6 samples.

Results

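Reported target genes of YAP and TAZ were followed one by one in cells carrying the TAZ-CAMTA1 fusion (TC), with and without aurintricarboxylic acid (ATA). The 34 mouse genes are reported targets, but the list was put together with earlier results of these data known, so it is not an independent choice. They were found by symbol among 55401 counted genes, of which 55141 had a symbol, and all 34 passed the filter on low counts among 18539 genes tested. RNA-Seq libraries were prepared from NIH3T3 cells, an immortalized line of mouse embryonic fibroblasts. There were 2 libraries of cells with empty vector and the solvent DMSO (EV), 1 library of cells with TAZ-CAMTA1 and DMSO (TC) and 3 libraries of cells with TAZ-CAMTA1 and 10 μM ATA (TC + ATA). All cells were seeded for 16 h and then treated for 48 h. No library held EV cells with ATA, so an action of ATA without TC was not measured. Each group came from the same parental line. The study's methods state that cell experiments were repeated, but do not tie the libraries to separate cultures, so the p-values measure only the spread between these libraries.

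YAP and TAZ are transcriptional coactivators without a DNA-binding domain of their own. They reach DNA mainly through the TEAD transcription factors, and the Hippo kinases LATS1 and LATS2 keep them in the cytoplasm by phosphorylation. The fusion, found in the vascular sarcoma epithelioid hemangioendothelioma, keeps the part of TAZ that binds TEAD and gains the C-terminal part of the transcription factor CAMTA1. Many of the reported target genes encode proteins that act back on the pathway, such as the angiomotins, AJUBA and PTPN14, while others encode receptors, secreted proteins, regulators of small GTPases and proteins of the actin cytoskeleton. ATA was used in the study as a compound that disrupts the binding of TAZ to TEAD.

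Library totals ran from 58471484 to 74413193 counts. The 11 fibroblast markers were all present and summed to between 14730 and 19400 CPM (counts scaled to the size of the library after normalization), although Lum (0.66 to 2.18 CPM) and Dcn (4.91 to 21.9 CPM) were low. In TC versus EV, 5 of these markers fell (Dcn, Thy1, Lum, Pdgfra and Fn1, by 0.83 to 2.07 on the log2 scale) and 2 rose (Col1a1 and Vim). Of all genes tested, 13.2% fell and 14.8% rose. The part of the marker changes in the target genes' values was not tested. Markers of endothelial, epithelial and leukocyte cells each summed to at most 8.51 CPM in any library. Of 3 skeletal muscle markers, Acta1 was at 172 to 368 CPM while Myod1 and Myog were at most at 1.18 CPM. Counts of the EV libraries differed from each other by a chi-square of 61.3 per degree of freedom, against 5.86 to 6.61 between TC + ATA libraries. No pair of libraries agreed within sampling noise. The target genes differed less between the EV libraries, by a median of 0.07 on the log2 scale, than the 18539 genes tested did (0.22). These medians were not matched for expression level, and the genes tested include many with low counts. In bulk RNA, fewer cells expressing a gene and less of its RNA per cell cannot be told apart.

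The promoters were searched first for the letters of the TEAD core motif, CATTCC, on both strands. The windows ran from 250 bases before to 50 bases after each RefSeq transcription start of GRCm38.p6, and 24 of the 34 genes had at least 1 window. The motif was found in 8 of these 24 genes (33.3%), and in 16.6% of all 27025 genes with a window. Counted by window, the shares were 23.5% of 34 and 14.7% of all 32851. These are matches of letters only, and no measure of TEAD binding was analysed here. The letters of the AP-1 motif, TGANTCA, were found in F3 alone (4.17% of 24 genes, against 8.97% of all genes). These motifs do not overlap in any window printed here. The stretches around the matches are shown for the genes with a match and a single window. Of these, Amotl2, Ajuba, Ptpn14, Axl, Crim1 and Ankrd1 rose in TC versus EV, and F3 had the largest rise called under ATA. Sgk1 and Pmp22, with a TEAD match but several windows, are not shown, and neither rose in TC versus EV. Among genes with a window and no TEAD match, Amotl1, Tnfrsf12a, Arhgap29, Myof, Fscn1, Gadd45a, Pawr and Ddah1 rose too, and Amot and Fstl1 fell. A link between the motif and the changes was not tested. Capitals mark the motif, on the strand of the gene, where GGAATG is CATTCC read on the other strand.
Amotl2, chr9:102717727-102717756 (+): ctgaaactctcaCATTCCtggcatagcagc
Ajuba, chr14:54577790-54577877 (-): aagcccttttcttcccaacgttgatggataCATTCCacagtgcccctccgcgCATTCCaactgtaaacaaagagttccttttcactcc
Ptpn14, chr1:189728092-189728157 (+): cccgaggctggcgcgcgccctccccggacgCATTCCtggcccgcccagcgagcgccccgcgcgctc
Axl, chr7:25788931-25788983 (-): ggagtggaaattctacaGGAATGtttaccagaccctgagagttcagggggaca
Crim1, chr17:78200139-78200204 (+): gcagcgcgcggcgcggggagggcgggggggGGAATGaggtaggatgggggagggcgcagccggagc
Ankrd1, upstream match, chr19:36120037-36120066 (-): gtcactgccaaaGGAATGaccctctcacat
Ankrd1, downstream match, chr19:36119950-36119979 (-): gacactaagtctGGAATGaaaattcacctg
F3, chr3:121723385-121723414 (+): cgctgtTGAATCAcggtTGAGTCAcccctt

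Ajuba and Ankrd1 each held 2 TEAD matches, at 186 and 164 bases and at 210 and 123 bases before the start. The matches of F3 to AP-1 began 146 and 135 bases before it. Sgk1 and Pmp22 held a TEAD match at only 1 of their starts (1 of 6 and 1 of 4). The genes with no window were Nuak2, Ccdc80, Fjx1, Dock5, Asap1, Arhgef17, Dlc1, Marcks, Ndrg1 and Shcbp1.

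**Figure D1:**
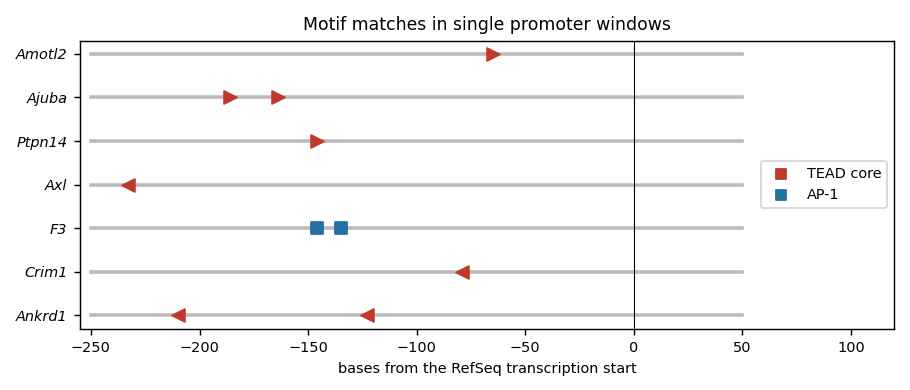
Positions of motif matches in the promoter windows of the 7 genes that had 1 RefSeq start and at least 1 match, in bases from the start (x axis, 0 is the start). Arrowheads show TEAD core matches and their strand relative to the gene. Squares show AP-1 matches without a strand, because the pattern TGANTCA is the same on both strands. All matches lie before the start, between 233 bases (Axl, 1 match) and 65 bases (Amotl2) from it.

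Levels can be set between genes only per length. On the scale of CPM per kilobase of exon, the target genes spanned a wide range in EV cells, from 0.03 for Nt5e and 0.04 for Igfbp3 to 160 ± 1.52 (SD, n = 2) for Tnfrsf12a and 151 ± 7.78 (SD, n = 2) for Axl. Fscn1 (128 ± 16.1, SD, n = 2) and Fstl1 (88.1 ± 6.32, SD, n = 2) followed. Nt5e and Igfbp3 were close to absent, with 8 to 29 and 4 to 34 counts per library, and their fold changes are correspondingly uncertain. Summed over the 34 genes, the level was 4817 and 4763 CPM in EV, 7096 CPM in TC, and 7139, 7042 and 6872 CPM in TC + ATA. The EV libraries therefore lay below all 4 libraries with the fusion, and the TC library lay within the range of the TC + ATA libraries. Mitochondrial transcripts were split in the same way, with 11470 and 14774 CPM in EV, 18998 CPM in TC and 17549 to 21711 CPM in TC + ATA, and their part in the result was not tested.

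**Figure D2:**
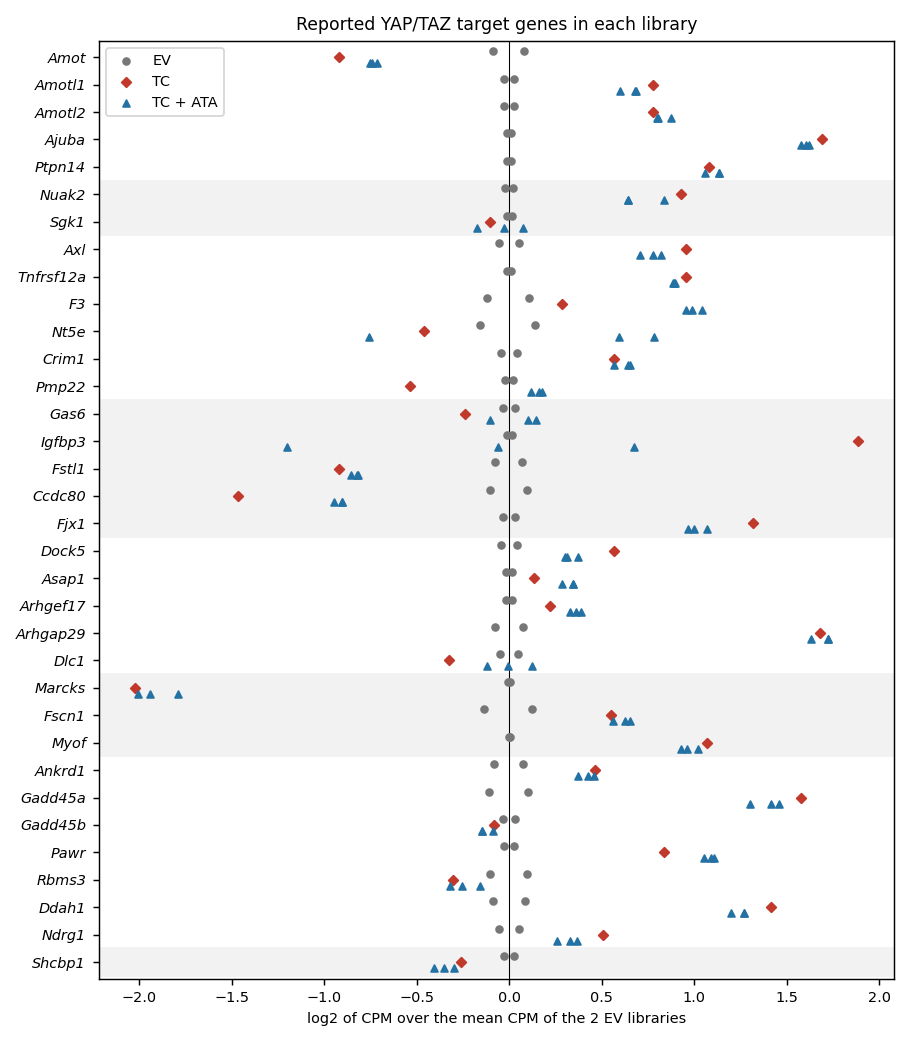
Each of the 34 target genes in each library, as log2 of its CPM over the mean CPM of the 2 EV libraries (x axis), with genes in rows grouped by role (shaded bands). For most genes the TC point (diamond) and the 3 TC + ATA points (triangles) lie close together and away from the EV points (circles), to the right for genes such as Ajuba, Arhgap29 and Ddah1 and to the left for Marcks, Ccdc80, Fstl1 and Amot.

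TC was compared with EV to ask which of the reported targets moved with the fusion. In edgeR's quasi-likelihood test with Benjamini-Hochberg adjustment over all 18539 genes, 18 of the 34 target genes rose (52.9%), where 14.8% of all genes tested did. Another 6 fell (17.6%), where 13.2% of all genes did, and 10 did not pass the test. The shares of all genes depend on the low-count genes tested. With only genes of at least 5 CPM in 1 library, 19 target genes rose, where 23.2% of 10887 genes did. With that filter 6 target genes fell, where 20.1% of those genes did. The largest increases called were those of Ajuba (log2 fold change 1.69 ± 0.07, SE) and Arhgap29 (1.68 ± 0.09), and the largest decreases were those of Marcks (−2.02 ± 0.11) and Ccdc80 (−1.47 ± 0.11). The median log2 fold change was 0.53 for the target genes and −0.03 for all genes tested.

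With the further limit of an absolute log2 fold change of 2, which the study used, Marcks was the only target gene called lower (1.27% of all genes). None was called higher (2.36% of all genes) by edgeR or by DESeq2, and the largest increase whatever its p was that of the near-absent Igfbp3 (1.87 ± 0.78). By range alone, all 34 genes had a TC value outside the EV values, 22 above and 12 below. With only 1 TC library this held for 78.9% of all genes tested. The spread in this comparison came from EV and TC + ATA, with 3 residual degrees of freedom. Scaling by library totals without TMM shifted the median of all genes by −0.11 and left the number of increases at 18, with 7 decreases.

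**Figure D3:**
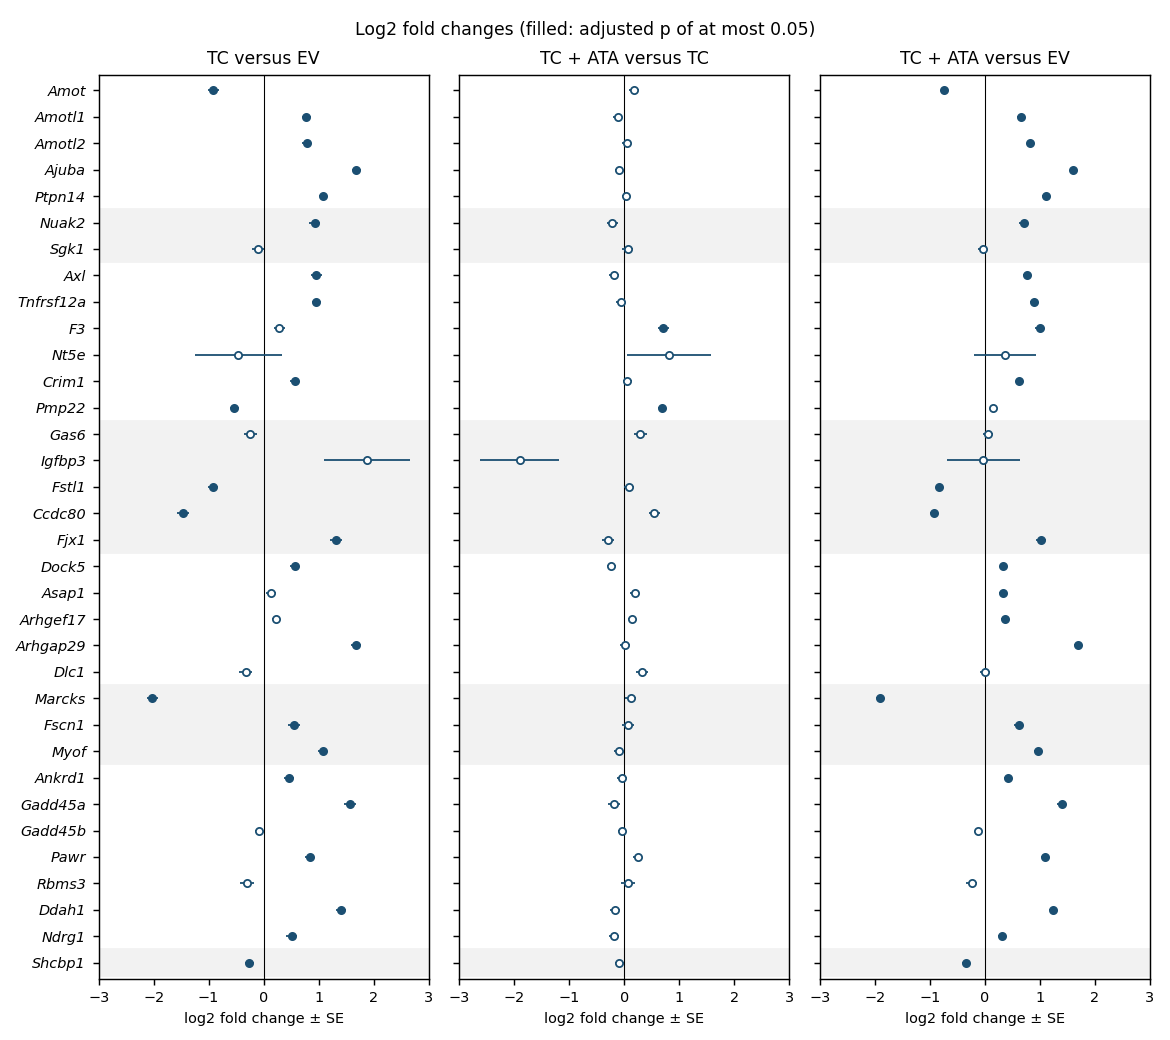
Log2 fold change of each target gene (x axis, points, with bars for ± 1 SE) in the 3 comparisons (panels), with filled points for an adjusted p of at most 0.05 from edgeR. In the left panel 18 filled points lie above 0 and 6 below, in the middle panel only F3 and Pmp22 are filled, and in the right panel 21 filled points lie above 0 and 5 below.

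Of the 5 genes for proteins that bind YAP or TAZ or the Hippo kinases, 4 rose in TC and 1 fell. For this and the other roles below, all small groups, the shares of all genes tested were 14.8% risen and 13.2% fallen. The angiomotins are junctional scaffolds that bind YAP and TAZ and hold them outside the nucleus, and their 3 genes did not move together. Amot (chromosome X, 145446425 to 145505181) stood at 62.7 and 55.9 CPM in EV, 31.4 CPM in TC, and 35.5, 36.1 and 35.2 CPM in TC + ATA. Every library with the fusion was thus below both EV libraries, and Amot fell by 0.92 on the log2 scale (SE 0.10, adjusted p = 0.000148 from edgeR).

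Amotl1 (chromosome 9, 14541966 to 14645056) had 108 and 113 CPM in EV, 189 CPM in TC, and 177, 177 and 167 CPM in TC + ATA. Amotl2 (chromosome 9, 102716672 to 102733418) had 294 and 306 CPM in EV, 515 CPM in TC, and 549.7, 525 and 523 CPM in TC + ATA. Both were higher in all 4 libraries with the fusion than in either EV library, each with a log2 fold change of 0.78 in TC versus EV (SE 0.08 and 0.09, adjusted p = 0.000121 and 0.000172 from edgeR). Per kilobase of exon the order in EV was Amotl2 (47.7 ± 1.29 CPM per kilobase, SD, n = 2), Amotl1 (11.0 ± 0.30) and Amot (7.06 ± 0.58). In TC the order was the same, with the levels of Amotl2 and Amotl1 farther above that of Amot, at 82.0, 18.8 and 3.74 CPM per kilobase.

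**Figure D4:**
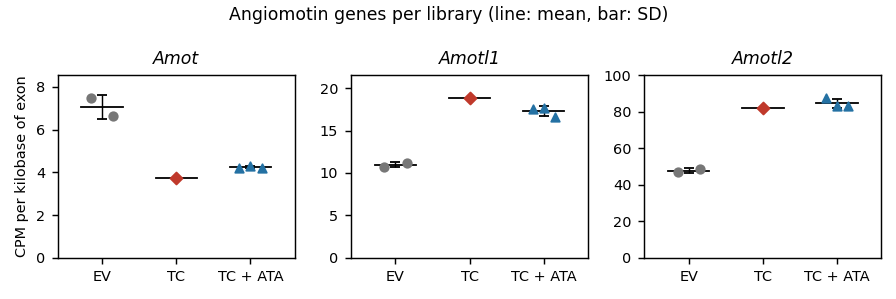
Level of the 3 angiomotin genes in CPM per kilobase of exon (y axis, from 0) in each library of EV (circles), TC (diamond) and TC + ATA (triangles), with lines for means and bars for SD where a group has more than 1 library. Amot is lower and Amotl1 and Amotl2 are higher in all 4 libraries with the fusion than in the 2 EV libraries.

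Ajuba (chromosome 14, 54567472 to 54577558) encodes a LIM domain protein that binds the LATS kinases and restrains them. It was at 71.1 and 72.1 CPM in EV, 231 CPM in TC, and 220.1, 218 and 213 CPM in TC + ATA, a 3.22-fold rise in TC over EV (adjusted p = 1.09e-06 from edgeR). Ptpn14 (chromosome 1, 189728268 to 189876695), whose product is a tyrosine phosphatase that binds YAP, was at 108 and 107 CPM in EV, 227 CPM in TC, and 236, 236 and 224 CPM in TC + ATA. The log2 fold change between TC and EV was 1.08 ± 0.08 (SE, adjusted p = 1.43e-05 from edgeR). For both genes the EV libraries nearly coincided and lay far below the other 4.

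Of the 2 kinase genes, Nuak2, an AMPK-related kinase that acts on actomyosin, rose in TC (log2 fold change 0.93 ± 0.11, SE). Sgk1, a kinase induced by serum and glucocorticoids, did not pass the test (−0.10 ± 0.11, with a 95% confidence interval from −0.35 to 0.14). Its values of 246 to 292 CPM in TC + ATA enclosed those of both EV libraries (280.0 and 275 CPM) and of TC (258 CPM). Of 6 glucocorticoid response genes, 1 rose (Dusp1) and 1 fell (Per1) in TC versus EV, where 14.8% and 13.2% of all genes did. The summed level of the 6 genes stayed between 329 and 356 CPM in all 6 libraries.

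Among the 6 genes for receptors and surface proteins, Axl, Tnfrsf12a and Crim1 rose in TC, Pmp22 fell, and F3 and Nt5e did not pass the test. Axl (chromosome 7, 25757273 to 25788705), the receptor tyrosine kinase for GAS6, had 786 and 730.5 CPM in EV, 1472 CPM in TC, and 1338, 1299 and 1239.7 CPM in TC + ATA. Tnfrsf12a (chromosome 17, 23675445 to 23677468), the receptor for the cytokine TWEAK, had 308 and 312 CPM in EV, 602 CPM in TC, and 574, 574 and 578 CPM in TC + ATA. Both had a log2 fold change of 0.96 in TC versus EV (SE 0.10 and 0.08, adjusted p = 0.000108 and 3.64e-05 from edgeR), with TC above every other library. Crim1, a transmembrane protein that binds bone morphogenetic proteins, had a smaller rise of 0.56 ± 0.08 (SE) on the log2 scale. It shares 123 of its 5995 exonic bases with Fez2 on the opposite strand, and the study's text does not say whether counting used strand.

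F3 (chromosome 3, 121723537 to 121735048) encodes tissue factor, which starts the extrinsic pathway of blood clotting. It stood at 61.6 and 72.1 CPM in EV, 81.6 CPM in TC, and 129.7, 138 and 133 CPM in TC + ATA. TC lay just above the higher EV library, and the log2 fold change of 0.29 ± 0.10 (SE) missed the limit (adjusted p = 0.0657 from edgeR), while DESeq2 on all 6 libraries called it (adjusted p = 0.0477). Pmp22 (chromosome 11, 63128982 to 63159547), a membrane protein of peripheral myelin and of cell junctions, had 77.9 and 75.8 CPM in EV, 53.1 CPM in TC, and 87.1, 83.5 and 86.0 CPM in TC + ATA. TC was lower than all 5 other libraries, and Pmp22 fell by 0.53 on the log2 scale (SE 0.08, adjusted p = 0.00114 from edgeR), a call that DESeq2 with only EV and TC did not make (adjusted p = 0.0566). Nt5e, the ecto-enzyme CD73 that makes adenosine, was under 1 CPM in every library.

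The 5 genes for secreted proteins were mixed, with 1 risen, 2 fallen and 2 that did not pass the test in TC versus EV. Gas6 (chromosome 8, 13465374 to 13494490), the ligand of AXL, had 20.4 and 21.4 CPM in EV, 17.7 CPM in TC, and 23.1, 19.5 and 22.4 CPM in TC + ATA. The ligand gene was lowest in the TC library, where the receptor gene Axl was highest, and its log2 fold change of −0.24 ± 0.12 (SE) did not pass the test (adjusted p = 0.193 from edgeR). Per kilobase of exon, Axl exceeded Gas6 in each group, with 151 against 8.20 CPM per kilobase in EV and 293 against 6.94 in TC.

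Fjx1 (chromosome 2, 102449366 to 102452499), the mouse counterpart of the fly gene four-jointed, had 6.24 and 5.97 CPM in EV, 15.2 CPM in TC, and 11.9, 12.8 and 12.2 CPM in TC + ATA. It rose 2.49-fold in TC (adjusted p = 4.62e-05 from edgeR) and was highest in TC of all libraries. Ccdc80 (chromosome 16, 45093402 to 45128077), which encodes a protein of the extracellular matrix, had 63.9 and 73.6 CPM in EV, 24.9 CPM in TC, and 35.7, 36.8 and 36.7 CPM in TC + ATA. The groups were separate, with TC lowest and TC + ATA between TC and EV, and the gene fell by 1.47 on the log2 scale in TC versus EV (SE 0.11, adjusted p = 1.55e-05 from edgeR). Fstl1, a secreted glycoprotein related to follistatin, fell by 0.92 on the log2 scale (SE 0.09), from 411 and 455 CPM in EV to 229 CPM in TC. Igfbp3, a binding protein of insulin-like growth factors, had 34 counts in TC and 4 to 12 in the other libraries, and did not pass the test (adjusted p = 0.112 from edgeR).

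Among the 5 regulators of small GTPases, Arhgap29 and Dock5 rose in TC and none fell. Arhgap29 (chromosome 3, 121952541 to 122016753), a GTPase-activating protein, had 73.7 and 81.8 CPM in EV, 249 CPM in TC, and 257, 257 and 241 CPM in TC + ATA. The 4 libraries with the fusion lay far above EV, a 3.21-fold rise in TC (adjusted p = 2.7e-06 from edgeR). Dock5, an exchange factor for Rac, rose by 0.56 ± 0.08 (SE) on the log2 scale. The Arf regulator Asap1 (0.13 ± 0.08), the guanine nucleotide exchange factor Arhgef17 (0.22 ± 0.08) and the GTPase-activating protein Dlc1 (−0.32 ± 0.12) did not pass the test. With only genes of at least 5 CPM in 1 library, edgeR called Arhgef17 higher (adjusted p = 0.0189). Without EV replicate 1 or 2 the log2 fold changes were 0.23 and 0.20 for Arhgef17 and 0.14 and 0.12 for Asap1. F3 and Arhgap29 lie 217 kb apart on chromosome 3 with 1 protein-coding gene between them.

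Of the 3 genes for proteins of the cytoskeleton and membrane, Myof and Fscn1 rose and Marcks fell. Marcks (chromosome 10, 37133375 to 37138920), a substrate of protein kinase C that cross-links actin at the plasma membrane, had 165 and 164 CPM in EV, 40.5 CPM in TC, and 42.9, 47.7 and 41.1 CPM in TC + ATA. The libraries with the fusion were close together and far below EV, and the fall in TC versus EV was the largest among the target genes (adjusted p = 2.85e-06 from edgeR). Myof (chromosome 19, 37899036 to 38043577), a ferlin of membrane repair and fusion, had 456 and 454 CPM in EV, 956 CPM in TC, and 924, 886 and 865 CPM in TC + ATA. Its rise was 2.1-fold in TC (adjusted p = 3.16e-05 from edgeR). Fscn1, which encodes the actin-bundling protein fascin, rose by 0.55 ± 0.11 (SE) on the log2 scale, but the EV libraries themselves were apart (419 and 351 CPM), and with only EV and TC in the fit the adjusted p was 0.0722 from edgeR.

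Of the 7 genes with nuclear, stress and metabolic roles, 5 rose and none fell in TC, where 14.8% and 13.2% of all genes did. Ankrd1 (chromosome 19, 36111961 to 36120099), an ankyrin repeat protein of muscle and nucleus often used as a readout of YAP and TAZ, had 74.8 and 83.6 CPM in EV, 109 CPM in TC, and 106, 103 and 109 CPM in TC + ATA. The groups with the fusion lay above EV, but the log2 fold change of 0.46 ± 0.09 (SE, adjusted p = 0.00472 from edgeR) was the smallest of the 18 increases, and DESeq2 with only EV and TC did not call it (adjusted p = 0.0975).

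Gadd45a (chromosome 6, 67035096 to 67037457), a gene of growth arrest and DNA damage, had 12.6 and 14.6 CPM in EV, 40.6 CPM in TC, and 36.3, 33.6 and 37.4 CPM in TC + ATA. It rose 2.98-fold in TC (adjusted p = 1.24e-05 from edgeR), whereas its paralog Gadd45b did not pass the test (log2 fold change −0.08 ± 0.08, SE, with a 95% confidence interval from −0.27 to 0.10). Gadd45a shares 337 of its 1764 exonic bases with E230016M11Rik on the opposite strand, which held 39 to 167 counts against 945 to 2819 for Gadd45a. Of 9 target genes of p53, listed because p53 also acts on Gadd45a, 2 rose (Mdm2 and Phlda3) and 1 fell (Trp53inp1) in TC. The shares of all genes were 14.8% and 13.2%, and the 9 genes had a median log2 fold change of 0.01.

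Ddah1 (chromosome 3, 145758675 to 145894277), the enzyme that degrades asymmetric dimethylarginine, had 49.6 and 44.0 CPM in EV, 125 CPM in TC, and 113, 113 and 107 CPM in TC + ATA. It rose 2.66-fold in TC (adjusted p = 6.86e-06 from edgeR), with TC the highest library. It is a neighbor of the YAP/TAZ target Ccn1, 109 kb away with no protein-coding gene between them. Pawr, a pro-apoptotic regulator, rose by 0.84 ± 0.08 (SE) on the log2 scale, and Ndrg1, a gene induced by stress and hypoxia, rose by 0.51 ± 0.09 but was not called by DESeq2 with only EV and TC (adjusted p = 0.105). Of 10 hypoxia genes, 3 rose and 4 fell in TC, where 14.8% and 13.2% of all genes did. The RNA-binding protein gene Rbms3 did not pass the test (−0.30 ± 0.13).

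Shcbp1, which encodes a partner of the adaptor SHC that acts at the end of cell division, was the only cell division gene of the list and fell by 0.26 on the log2 scale (SE 0.08, adjusted p = 0.0489 from edgeR). The call was at the limit and was lost with DESeq2 on all 6 libraries (adjusted p = 0.0929) and with each TC + ATA library left out (adjusted p between 0.0942 and 0.119 from edgeR). Of 12 proliferation genes, none rose and 1 fell (Ccnb2) in edgeR's test, where 14.8% of all genes rose and 13.2% fell. The median log2 fold change of the 12 genes was 0.14.

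TC + ATA was compared with TC to ask which target genes moved with the compound in cells carrying the fusion. Of the 34 genes, 2 rose (5.88%), F3 and Pmp22, where 0.426% of all genes tested did (79 genes). None fell in edgeR's test, where 0.156% of all genes did (29 genes). At an unadjusted p under 0.05 in edgeR, 7 were higher and 3 lower, where 1781 of the 18539 genes passed in either direction. DESeq2 on all 6 libraries called 3 higher and 0 lower, where it called 1.64% of all its genes higher and 0.585% lower. The median log2 fold change was 0.04 for the target genes and 0.00 for all genes. By range, 29 of the 34 genes had all TC + ATA libraries on 1 side of the TC library, 14 above and 15 below, as did 63.2% of all genes tested.

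Neither of the genes called was among the 18 that rose in TC versus EV. F3 rose 1.64-fold over TC (log2 fold change 0.71 ± 0.10, SE, adjusted p = 0.0198 from edgeR), with all 3 TC + ATA libraries above the TC and EV libraries. Pmp22 rose 1.61-fold (log2 fold change 0.69 ± 0.08, SE, adjusted p = 0.00759 from edgeR), to a level at which it did not differ beyond the test's limit from EV (0.15 ± 0.06, adjusted p = 0.0682). In TC + ATA versus TC, Ccdc80 was next after F3 and Pmp22, at 0.55 ± 0.10 (SE, adjusted p = 0.0548 from edgeR). All 3 TC + ATA libraries held more Ccdc80 than TC, and DESeq2 called it (adjusted p = 0.00105).

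**Figure D5:**
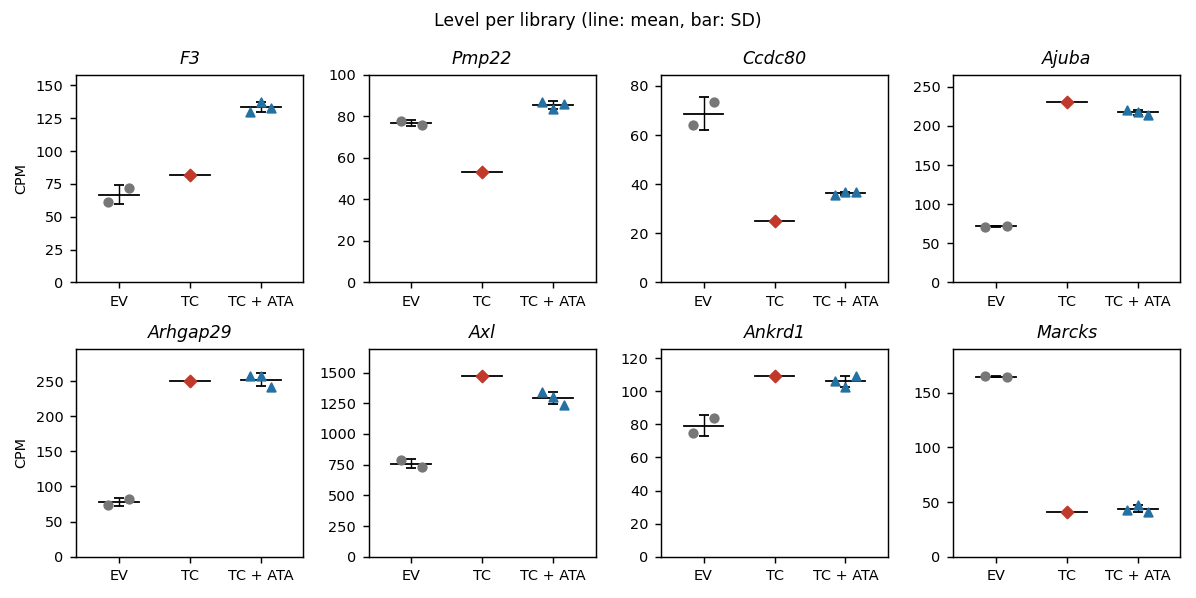
Level of 8 target genes in CPM (y axes, from 0, each with its own range) in each library of EV (circles), TC (diamond) and TC + ATA (triangles), with lines for means and bars for SD where a group has more than 1 library. F3 is highest in TC + ATA, Pmp22 is lowest in TC, and Ccdc80 in TC + ATA lies between TC and EV, while Ajuba, Arhgap29, Ankrd1 and Marcks in TC + ATA lie near TC and away from EV.

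None of the 18 genes that rose in TC was called lower in TC + ATA versus TC in edgeR's fit of all 6 libraries, although Axl, Dock5 and Ddah1 of these 18 were called lower by edgeR and DESeq2 without the EV libraries. Their log2 fold changes with ATA ran from −0.30 (Fjx1) to 0.25 (Pawr), with a median of −0.09, 12 below 0 and 6 above. The 95% confidence intervals of the 18 reached no lower than −0.55 and no higher than 0.43. The comparisons of TC with EV and of TC + ATA with TC share the single TC library in opposite roles, so an error in that library moves both values of a gene in opposite directions.

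Individually, Fjx1 (−0.30 ± 0.11, SE), Dock5 (−0.23 ± 0.08) and the near-absent Igfbp3 (−1.90 ± 0.72) were the genes lower at an unadjusted p under 0.05. Axl had −0.19 ± 0.09, Nuak2 −0.22 ± 0.10, Ndrg1 −0.19 ± 0.09, Gadd45a −0.18 ± 0.11 and Ddah1 −0.17 ± 0.09. All 3 TC + ATA libraries lay below TC for each of these, as for 32.7% of all genes tested. None of their adjusted p values passed the limit in the fit of all libraries. Ajuba (−0.09 ± 0.07), Amotl1 (−0.12 ± 0.08), Tnfrsf12a (−0.07 ± 0.08), Myof (−0.10 ± 0.08), Ankrd1 (−0.04 ± 0.09), Ptpn14 (0.03 ± 0.08), Arhgap29 (0.01 ± 0.09), Amotl2 (0.05 ± 0.08), Crim1 (0.06 ± 0.08) and Fscn1 (0.06 ± 0.11) were nearer to 0. Of these, Ajuba, Amotl1, Tnfrsf12a, Myof and Ankrd1 also had all TC + ATA libraries below TC. For Amotl2 the 95% interval ran from −0.14 to 0.23 and for Ankrd1 from −0.24 to 0.15.

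Among the genes that had fallen or not passed the test in TC versus EV, the values with ATA were 0.18 ± 0.09 (SE) for Amot, 0.09 ± 0.09 for Fstl1, 0.11 ± 0.10 for Marcks and −0.09 ± 0.08 for Shcbp1. Gas6 (0.29 ± 0.12), Dlc1 (0.33 ± 0.11) and Asap1 (0.19 ± 0.08) were higher at an unadjusted p under 0.05, as was Pawr (0.25 ± 0.08) of the genes that rose in TC. Arhgef17 (0.14 ± 0.07), Sgk1 (0.07 ± 0.10), Rbms3 (0.06 ± 0.13), Gadd45b (−0.04 ± 0.08) and Nt5e (0.82 ± 0.76) did not reach that level.

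The calls differed between fits. With the EV libraries left out, edgeR and DESeq2 each called 7 target genes higher (F3, Pmp22, Ccdc80, Asap1, Arhgef17, Dlc1 and Pawr) and 3 lower (Axl, Dock5 and Ddah1), where edgeR then called 4.42% of all genes higher and 3.52% lower, and DESeq2 5.34% and 5.38%. With any 1 TC + ATA library left out edgeR called none in either direction, although the log2 fold changes stayed at 0.69 to 0.73 for F3 and 0.68 to 0.70 for Pmp22.

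TC + ATA was compared with EV to ask where the target genes stood in treated cells relative to cells without the fusion. Of the 34 genes, 21 were higher (61.8%), where 18% of all genes tested were. Another 5 were lower (14.7%), where 18.6% of all genes were. With only genes of at least 5 CPM in 1 library, 22 target genes were higher and 5 lower, where 26.7% and 25.2% of all genes were. The median log2 fold change was 0.39 for the target genes and −0.01 for all genes. By range, 29 of the 34 genes had all TC + ATA libraries on 1 side of both EV libraries, 22 above and 7 below, as did 58.8% of all genes tested. This comparison has replicates in both groups and does not use the TC library, but it shares the EV libraries with TC versus EV and changes the fusion and the compound together.

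The 18 genes that rose in TC versus EV were all higher in TC + ATA than in EV as well. Their median log2 fold change was 0.86, with a range from 0.32 (Ndrg1) to 1.69 (Arhgap29). These 18 had been picked by their rise over the same EV libraries. How many of all genes that rose in TC were also higher here was not counted. Ajuba stood at 1.60 ± 0.06 (SE), Gadd45a at 1.39 ± 0.09, Ddah1 at 1.24 ± 0.07, Ptpn14 at 1.11 ± 0.06, Pawr at 1.08 ± 0.06 and Fjx1 at 1.01 ± 0.09. Myof (0.97 ± 0.07), Tnfrsf12a (0.89 ± 0.06), Amotl2 (0.83 ± 0.07), Axl (0.77 ± 0.08), Nuak2 (0.71 ± 0.08), Amotl1 (0.65 ± 0.06), Crim1 (0.62 ± 0.06) and Fscn1 (0.61 ± 0.09) followed. Ankrd1 (0.42 ± 0.07), Dock5 (0.33 ± 0.06) and Ndrg1 (0.32 ± 0.07) had the smallest increases of the 18.

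The other 3 genes called higher were F3 (1.00 ± 0.08, SE, adjusted p = 1.55e-05 from edgeR), Arhgef17 (0.36 ± 0.06, adjusted p = 0.00139) and Asap1 (0.33 ± 0.06, adjusted p = 0.00331). For F3 both the TC and the TC + ATA values lay above EV, and the larger part of the difference from EV was between TC and TC + ATA. With these, 4 of the 5 regulators of small GTPases were higher in TC + ATA than in EV, where 18% of all genes were. A group this small gives no firm share.

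The 5 genes called lower were Marcks (−1.91 ± 0.07, SE), Ccdc80 (−0.92 ± 0.07), Fstl1 (−0.83 ± 0.07), Amot (−0.74 ± 0.07) and Shcbp1 (−0.35 ± 0.06). Shcbp1, at the limit in TC versus EV, had an adjusted p of 0.00206 from edgeR here. The 8 genes that did not pass were Pmp22, Sgk1 (−0.04 ± 0.08), Gas6 (0.05 ± 0.09), Dlc1 (0.00 ± 0.09), Gadd45b (−0.13 ± 0.06), Rbms3 (−0.24 ± 0.10), Nt5e (0.36 ± 0.57) and Igfbp3 (−0.03 ± 0.67). For Sgk1, Gas6, Dlc1, Nt5e and Igfbp3 the libraries of the groups overlapped.

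By edgeR's calls in the fit of all 6 libraries, the target genes fell into 6 patterns over the 3 comparisons. The commonest, with 18 genes, was higher in both comparisons with EV and not called between TC + ATA and TC. The share of all genes tested with this pattern was not counted. Amot, Fstl1, Ccdc80, Marcks and Shcbp1 were lower in both comparisons with EV and not called between TC + ATA and TC. F3, Pmp22 and the pair of Asap1 and Arhgef17 each had a pattern of their own, described above. Sgk1, Nt5e, Gas6, Igfbp3, Dlc1, Gadd45b and Rbms3 were called in none of them. Of these, Dlc1 was called by both tools in TC + ATA versus TC without the EV libraries, and lower in TC versus EV with library totals (adjusted p = 0.0257 from edgeR). Rbms3 was called lower in TC versus EV without EV replicate 1 (adjusted p = 0.0173 from edgeR).

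A 22-gene signature of YAP and TAZ activity, derived by others across cancers, holds 17 of the 34 genes. In TC versus EV, 10 of these 17 rose and 1 fell (Ccdc80), with a median log2 fold change of 0.56. Of the 17 genes outside the signature, 8 rose and 5 fell, with a median of −0.08. The shares of all genes tested were 14.8% risen and 13.2% fallen. The other 5 genes of the signature were Ccn1 (1.36 ± 0.11, SE), Ccn2 (0.59 ± 0.08), the Hippo kinase gene Lats2 (1.80 ± 0.08) and Tgfb2 (0.50 ± 0.13), which rose in TC versus EV, and Foxf2 (−0.97 ± 0.10), which fell. In TC + ATA versus TC none of these 5 was called by edgeR, with values of −0.04 for Ccn1, −0.03 for Ccn2, −0.01 for Lats2, 0.57 for Tgfb2 and 0.12 for Foxf2.

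Of 29 other genes of the Hippo pathway and TEAD, 28 were tested, and 12 rose and 3 fell in TC versus EV, where 14.8% and 13.2% of all genes did. Wwtr1, the gene of TAZ, was among those that rose (0.37 ± 0.08, SE), and the counts do not separate the endogenous gene from an introduced one. Tead1 and Tead4 rose while Tead2 and Tead3 fell. Among genes for proteins that act upstream of YAP and TAZ, more rose than fell. Frmd6, Taok3, Stk4 and Mob1a were higher in TC (165, 61.0, 48.4 and 288 CPM) than in EV (means of 120, 44.3, 36.4 and 240 CPM). Wtip, which like Ajuba encodes a LIM domain protein, had a log2 fold change of 1.92 ± 0.08 (SE), Wwc1 had 1.24 ± 0.11 and Wwc2 had 0.92 ± 0.08, while the cadherin gene Fat4 fell by 2.14 on the log2 scale (SE 0.20). Lats1, Sav1, Nf2, Stk3, Mob1b, Taok1, Taok2, Map4k4, Limd1 and Dchs1 did not pass the test. In TC + ATA versus TC, 1 of the 28 was called (Fat4, higher, where 0.426% of all genes were). In TC + ATA versus EV 12 were higher (18% of all genes) and 5 lower (18.6% of all genes).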

How the data were processed

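Bulk RNA-Seq of 6 NIH3T3 libraries was analysed. Per the labels and the study's methods, the authors prepared poly(A)-selected libraries with the NEBNext Ultra II kit, aligned paired-end reads to GRCm38.p6 with HISAT2 2.2.1 (the version as in the submitters' processing notes) and assigned them to genes with featureCounts. The authors deposited whole-number counts for each gene, not normalized. The annotation release and the use of strand are not given in the sources used here. Reads shared by similar or overlapping genes were handled at that step.

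Counts were fitted in R 4.3.3 with edgeR 4.0.16 (TMM, filterByExpr, glmQLFit and glmQLFTest, all 6 libraries in 1 fit, Benjamini-Hochberg adjustment, limit 0.05). Standard errors were derived from the F statistic, and CPM are counts scaled to library totals and TMM factors. Depth was 58471484 to 74413193 counts per library. Symbols, positions and exonic lengths came from GENCODE M21 and promoter windows from RefSeq. Alternatives were DESeq2 1.42.0, fits with only the groups compared, other scaling and filters, a replicate block and leaving out 1 library of EV or TC + ATA at a time. The edgeR step was tested on simulated data for TC + ATA versus EV only. It called 96 of 100 genes changed 2-fold and 100 of 100 changed 4-fold, with 12 false calls among 18539 genes. The simulated counts had the same spread in every gene and library, and genes with low counts were not among those changed. In the real data the EV libraries differed from each other more than the TC + ATA libraries did, so these rates need not hold for them. The comparisons with the single TC library were not simulated.

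All 34 target genes were named, with values in every library for those called in TC versus EV with an absolute log2 fold change of at least 1, those called in TC + ATA versus TC, and Amot, Amotl1, Amotl2, Ajuba, Ptpn14, Ankrd1, Axl, Gas6 and Tnfrsf12a. Single values of Sgk1, Fstl1, Fscn1, Nt5e and Igfbp3, and the genes singled out of the other lists, were added after the values were seen. The genes and lists were chosen with earlier results of these data known. Protein sequences were not analysed here.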

Additional observations from a re-analysis of the deposited data

How the results depend on the processing

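The numbers of target genes called in TC versus EV (18 higher, 6 lower) and in TC + ATA versus EV (21 higher, 5 lower) stayed within 1.5 times under every alternative run. In TC + ATA versus TC, the 2 genes called higher and 0 called lower became 7 and 3 with only the groups compared (edgeR, and likewise DESeq2), 1 higher with library totals without TMM (F3 was lost, adjusted p = 0.0622 from edgeR), 0 higher with the replicate block, and 0 to 7 higher and 0 to 3 lower with each replicate left out. Without an EV replicate (1 or 2), 6 or 7 were higher and 3 or 2 lower, and the lone EV library was then assumed to vary like the other groups. Without any 1 of the TC + ATA replicates none was called in edgeR, with adjusted p between 0.0927 and 0.155 for F3 and between 0.0566 and 0.0825 for Pmp22, while the log2 fold changes stayed at 0.69 to 0.73 and 0.68 to 0.70. The cause was not tested.

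The replicate numbers were not taken to pair the libraries. Deviations of same-numbered EV and TC + ATA libraries from their group means correlated at −0.02 (number 1) and −0.16 (number 2) across genes. Differently numbered ones correlated at −0.14 to 0.16. The deviations of 2 EV libraries are mirror images, so these values cannot tell whether the libraries are paired. TC shares only number 1. With the replicate number as a block, which left 1 residual degree of freedom, 17 rose and 5 fell in TC versus EV, 0 were called in TC + ATA versus TC, and 21 were higher and 5 lower in TC + ATA versus EV.

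Signs changed only in values that were not called, and the cause was not tested. In TC + ATA versus TC these were Sgk1 with the block (−0.025) and Arhgap29 without TC + ATA replicate 1 or 2 (−0.0020 and −0.0015, with a range from −0.0020 to 0.045 over the replicates left out). In TC + ATA versus EV these were Sgk1 without TC + ATA replicate 1 (0.027, range −0.096 to 0.027), Gas6 with library totals (−0.037), Igfbp3 with the block (0.31) and without TC + ATA replicate 3 (0.33, range −0.51 to 0.33), and Dlc1 with library totals (−0.085), with upper quartile factors (−0.0043), with no filter on low counts (−0.0098), without EV replicate 2 (−0.040) and without TC + ATA replicate 1 (−0.061, range −0.061 to 0.060). TC has 1 library, so no alternative could leave it out, and Nt5e and Igfbp3 gave no value with the filter of at least 5 CPM.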
